A study of Mus musculus with 56 samples.

Results

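The genes described here are 42 cell cycle and DNA replication genes, a list of named genes that uses no measured threshold. All 42 were found among the 23087 genes of the co-transfection table. Of these, 39 were among the 12364 genes of the first N2a table, which did not list Ccnd2, Cdk6 or Cdkn1c. All 42 were among the 15960 genes of the testis table. They were measured by bulk RNA sequencing. N2a is a mouse neuroblastoma cell line, a dividing tumour line of neural crest type. In the co-transfection experiment N2a cells received a small interfering RNA (siRNA) and a plasmid together with Lipofectamine 3000. Its 5 groups of 3 samples were a non-targeting siRNA with the control plasmid (siNT pcDNA), an siRNA against Fmr1 with pcDNA (siFmr1 pcDNA), siFmr1 with FLAG-tagged nuclear MBNL1 (siFmr1 nMBNL1), an siRNA against Mbnl1 with pcDNA (siMbnl1 pcDNA), and siMbnl1 with FLAG-tagged cytosolic MBNL1 (siMbnl1 cMBNL1). Every group was thus transfected with both an siRNA and a plasmid, no untransfected group was used here, and no group combined siNT with MBNL1. In the first N2a experiment the cells received an siRNA alone, siNT in 2 libraries and siFmr1 in 3. Testis was represented by 3 wild-type (WT) and 3 Fmr1 knockout (KO) mouse samples of unstated age and strain. The labels do not say that replicates came from separate cultures or animals, so the p-values measure the spread between these samples, which may be technical.

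As background, a cell commits to division when D-type cyclins with Cdk4 and Cdk6, and then cyclin E with Cdk2, release the E2F transcription factors. E2F factors raise the genes of DNA replication: Cdc6 and Cdt1 load the MCM helicase on origins, Cdc45 activates it, Pcna is the sliding clamp, and Rrm1, Rrm2 and Tyms supply nucleotides. Cyclin A, cyclin B and Cdk1 then drive mitosis, which Plk1, the Aurora kinases, the Bub1 checkpoint, the Cenpe and Cenpf kinetochore proteins and Cdc20 carry through. Cdkn1a, Cdkn1b and Cdkn1c inhibit the cyclin-dependent kinases. A testis holds dividing spermatogonia and meiotic spermatocytes beside somatic cells that divide little in the adult.

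Of the 42 genes, 34 had a promoter in the RefSeq table of build GRCm38.p6, which covers 250 bases before to 50 bases after each start. Ccnd1, Ccnd2, Ccne2, Mcm4, Ccna2, Cdc25c, Aurkb and Cdkn1c had no entry. Each promoter was searched on both strands for 3 motifs. These were the CCAAT box (CCAAT), the cell cycle homology region (TTTGAA), and an E2F site in 6 spellings (TTTGGCGC, TTTCGCGC, TTTCCCGC, TTTGCCGC, TTTGGCGG and TTTCGCGG). The CCAAT box was found for 26 of the 34 genes, against 41.1% of the 27025 genes in the table. TTTGAA was found for 12 of 34, against 20.2% of all genes, namely Plk1, Cdc20, Aurka, Bub1b, Ccnb2, Cdk1, Cenpf, Mki67, Top2a, Mcm2, Cdc45 and E2f2. An E2F spelling was found for 10 of 34, against 3.44% of all genes: Cdc6, Cdt1, Mcm3, Mcm5, Mcm6, Mcm7, Cdk1, Cdk2, Cdc25a and E2f2. With the first 4 spellings alone, a choice made after the counts had been seen, the numbers were again 10 of 34, against 2.6% of all genes. A match is a run of letters, not a binding site. The 150 bases before the start are given here for 3 genes that were lower after siFmr1 (Cdc6, Cdk2 and Bub1), for Cdc25a, which was higher with cytosolic MBNL1, and for Cdk1, the mitotic kinase. They are written 5′ to 3′ on the strand of the gene, with matches in capitals.
Cdc6: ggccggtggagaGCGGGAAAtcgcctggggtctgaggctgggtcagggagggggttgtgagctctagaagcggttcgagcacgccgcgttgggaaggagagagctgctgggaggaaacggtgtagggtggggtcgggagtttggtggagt
Cdk2: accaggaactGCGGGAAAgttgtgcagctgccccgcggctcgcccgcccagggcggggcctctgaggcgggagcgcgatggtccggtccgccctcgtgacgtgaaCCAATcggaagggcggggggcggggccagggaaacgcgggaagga
Bub1: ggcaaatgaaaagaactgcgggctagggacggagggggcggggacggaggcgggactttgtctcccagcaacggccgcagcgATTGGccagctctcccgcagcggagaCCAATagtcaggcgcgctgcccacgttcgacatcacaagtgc
Cdc25a: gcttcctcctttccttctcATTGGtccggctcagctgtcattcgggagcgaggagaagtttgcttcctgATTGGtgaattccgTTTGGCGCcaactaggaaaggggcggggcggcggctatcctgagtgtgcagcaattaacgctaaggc
Cdk1: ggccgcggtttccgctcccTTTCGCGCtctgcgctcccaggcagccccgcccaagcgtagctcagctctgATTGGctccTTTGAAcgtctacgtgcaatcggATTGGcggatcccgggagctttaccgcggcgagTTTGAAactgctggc

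These windows lie at chr11:98908001-98908150 (plus strand, Cdc6), chr10:128705052-128705201 (minus strand, Cdk2), chr2:127831860-127832009 (minus strand, Bub1), chr9:109875429-109875578 (plus strand, Cdc25a) and chr10:69352913-69353062 (minus strand, Cdk1). In the GENCODE M21 annotation of GRCm38, the Cdc6 window lies within the Cdc6 gene but in no exon, and the Cdk2 window overlaps the neighbouring gene Pmel on the other strand. The ends of the Bub1 and Cdk1 windows nearest the start reach into the annotated exons of those genes. The Cdc25a window overlaps no annotated gene. GCGGGAAA in the Cdc6 and Cdk2 windows is TTTCCCGC read on the other strand, and ATTGG is CCAAT read on the other strand. Cdk1 was the only one of the 5 windows that held all 3 motifs.

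The depth, the siRNA targets and the cell identity were examined first. First-experiment libraries held 13273331 to 16268865 counts and testis libraries 13752391 to 15879775. The co-transfection values were deposited as normalized counts that summed to 31955037 to 33273189 per sample, and their original depth is unknown. Fmr1 fell by 2.37 on the log2 scale in siFmr1 pcDNA against siNT pcDNA and Mbnl1 fell by 1.56 in siMbnl1 pcDNA (limma on log2(value + 1), adjusted p 1.06e-08 and 1.87e-07). The plasmid groups had higher Mbnl1 than siNT pcDNA, by 1.47 with nMBNL1 and 2.17 with cMBNL1. In testis Fmr1 fell by 1.95 (edgeR quasi-likelihood test, adjusted p 9.82e-19). In the first experiment Fmr1 was at 77.7 and 22.4 CPM (read counts scaled to a common library size) in siNT 1 and siNT 2 and at 14.7, 14.7 and 2.13 CPM in siFmr1 1 to 3. In TPM (read counts per transcript length, scaled to a common total), siNT 2 (5.66) lay within the siFmr1 range (0.7 to 6.62). All 11 neuroblast markers (such as Th, Dbh and Hand2) were detected in every N2a library of both experiments, and all 9 spermatocyte markers in every testis library.

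In co-transfected N2a cells several origin licensing genes had lower mRNA after the knockdown of Fmr1. Of the 42 genes, 11 fell and 2 rose in siFmr1 pcDNA against siNT pcDNA (limma over all 15 samples, Benjamini-Hochberg adjusted p under 0.05). Over all 16242 genes tested, 17.5% were lower and 19.5% higher by the same rule. By this fit the count of lower genes among the 42 is above its background and the count of higher genes below it. The 13 called in all make up 31.0% of the 42, against 37.0% of all genes. With only the compared groups fitted, 5 of the 42 fell and 1 rose, where 3653 of 16221 genes were called in either direction. The median log2 fold change of the 42 was -0.105, against 0.0318 over all genes. In bulk RNA, fewer cells in a phase and less RNA per cell cannot be told apart.

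Cdc6, the loader of the MCM helicase, had 2564, 2236 and 2807 normalized counts in siNT pcDNA and 1676, 1674 and 1552 in siFmr1 pcDNA. Every siFmr1 value lay below every siNT value, and the fold change was 0.647 (log2 -0.63 ± 0.07 SE, adjusted p 1.1e-05). Mcm4, a helicase subunit, had 4120, 4782 and 4361 in siNT pcDNA against 3068, 3096 and 2759 (log2 -0.57 ± 0.07, adjusted p 9.43e-06), again without overlap. Mcm7 fell by 0.31 (4821, 4725 and 4874 against 3976, 4068 and 3629, adjusted p 0.000742) and Mcm6 by 0.24 (adjusted p 0.00694). The other helicase subunits were not called, with log2 fold changes of 0.04 for Mcm2, -0.03 for Mcm5 and -0.16 for Mcm3, so the helicase genes did not all pass the test. Of the 9 licensing and helicase genes, 4 fell and none rose.

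Outside origin licensing the lower genes were spread over several stages. Cdk2, the kinase of S phase entry, had 2225, 2172 and 2436 in siNT pcDNA and 1669, 1699 and 1647 in siFmr1 pcDNA (log2 -0.44 ± 0.07, adjusted p 8.48e-05). Its partner Ccne2 had 2734, 3431 and 2578 against 2299, 2112 and 2413 (log2 -0.35 ± 0.10, adjusted p 0.0139). Bub1, the spindle checkpoint kinase, had 3770, 3429 and 2848 against 2352, 2387 and 2436 (log2 -0.48 ± 0.09, adjusted p 0.000607). None of these 3 genes, which were picked for their change, had overlapping groups. Smaller declines were called for Pcna (-0.27), Ccnb1 (-0.21), Rrm1 (-0.19) and Cdkn1b (-0.18), with adjusted p between 0.0256 and 0.0476.

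E2f2, a transcriptional activator of S phase genes, rose by 0.29 (1227, 1709 and 1398 against 1814, 1810 and 1641, adjusted p 0.023). Cdkn1c, an inhibitor with very low values in this line, had 8.99, 3.92 and 7.35 in siNT pcDNA and 27.4, 31.3 and 35.9 in siFmr1 pcDNA (log2 2.12 ± 0.61, adjusted p 0.0115). Among the anchors, Mki67 had 12990, 15900 and 11910 in siNT pcDNA and 14620, 14250 and 14590 in siFmr1 pcDNA. Cdk1 had 7146, 4510 and 6078 against 6029, 6079 and 6292. Neither was called (adjusted p 0.459 and 0.641), and in both the siFmr1 values lay within the siNT range. Cdkn1a had 2531, 2537 and 2704 against 2811, 2691 and 2511, which overlap. Ccnd1, the G1 cyclin, had 5686, 7739 and 6238 against 7661, 7522 and 7084 (log2 0.19 ± 0.09, adjusted p 0.109).

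The siNT pcDNA group varied more than the others. The median SD of log2 values over the 42 genes was 0.166 in siNT pcDNA and 0.0566 to 0.0752 in the other 4 groups. Over all genes it was 0.236 in siNT pcDNA and 0.0963 to 0.113 in the others. The fit of all 15 samples shares 1 estimate of the spread, so this touches the SE of every comparison. That SE can be too small for comparisons with siNT pcDNA and too large for those without it. Sample siNT pcDNA 2 stood apart: it was low in Pcna (5571 against 8000 and 7013), Cdk1 and Tyms and high in Ccnd1, Top2a and Cenpf (6266 against 4595 and 3880). Its difference from siNT pcDNA 1 was higher for longer transcripts, with a Spearman correlation of 0.537 across 13003 genes and 0.371 across 41 of the 42, values that share both libraries and are given as a description. Leaving out each of the 6 samples in turn, Cdc6, Mcm4, Mcm6, Mcm7, Cdk2, Bub1 and Cdkn1c were called in all 6 fits. Pcna was called in 1 of 6, the fit without siNT pcDNA 2 (adjusted p 8.47e-05 to 0.163). Rrm1 was called in 1 of 6, E2f2 and Ccnb1 in 2 and Cdkn1b in 3, and Ccne2 lost its call without siFmr1 pcDNA 2 (adjusted p 0.0668). With weights per group, 1 gene rose and 7 fell, where 4075 of 16242 genes were called, and Cdkn1c lost its call (adjusted p 0.0862). When only the compared groups were fitted, 1 rose and 5 fell, where 3653 of 16221 genes were called. Cdkn1c was the one that rose, and Cdc6, Mcm4, Cdk2, Bub1 and Mcm7 fell.

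**Figure D1:**
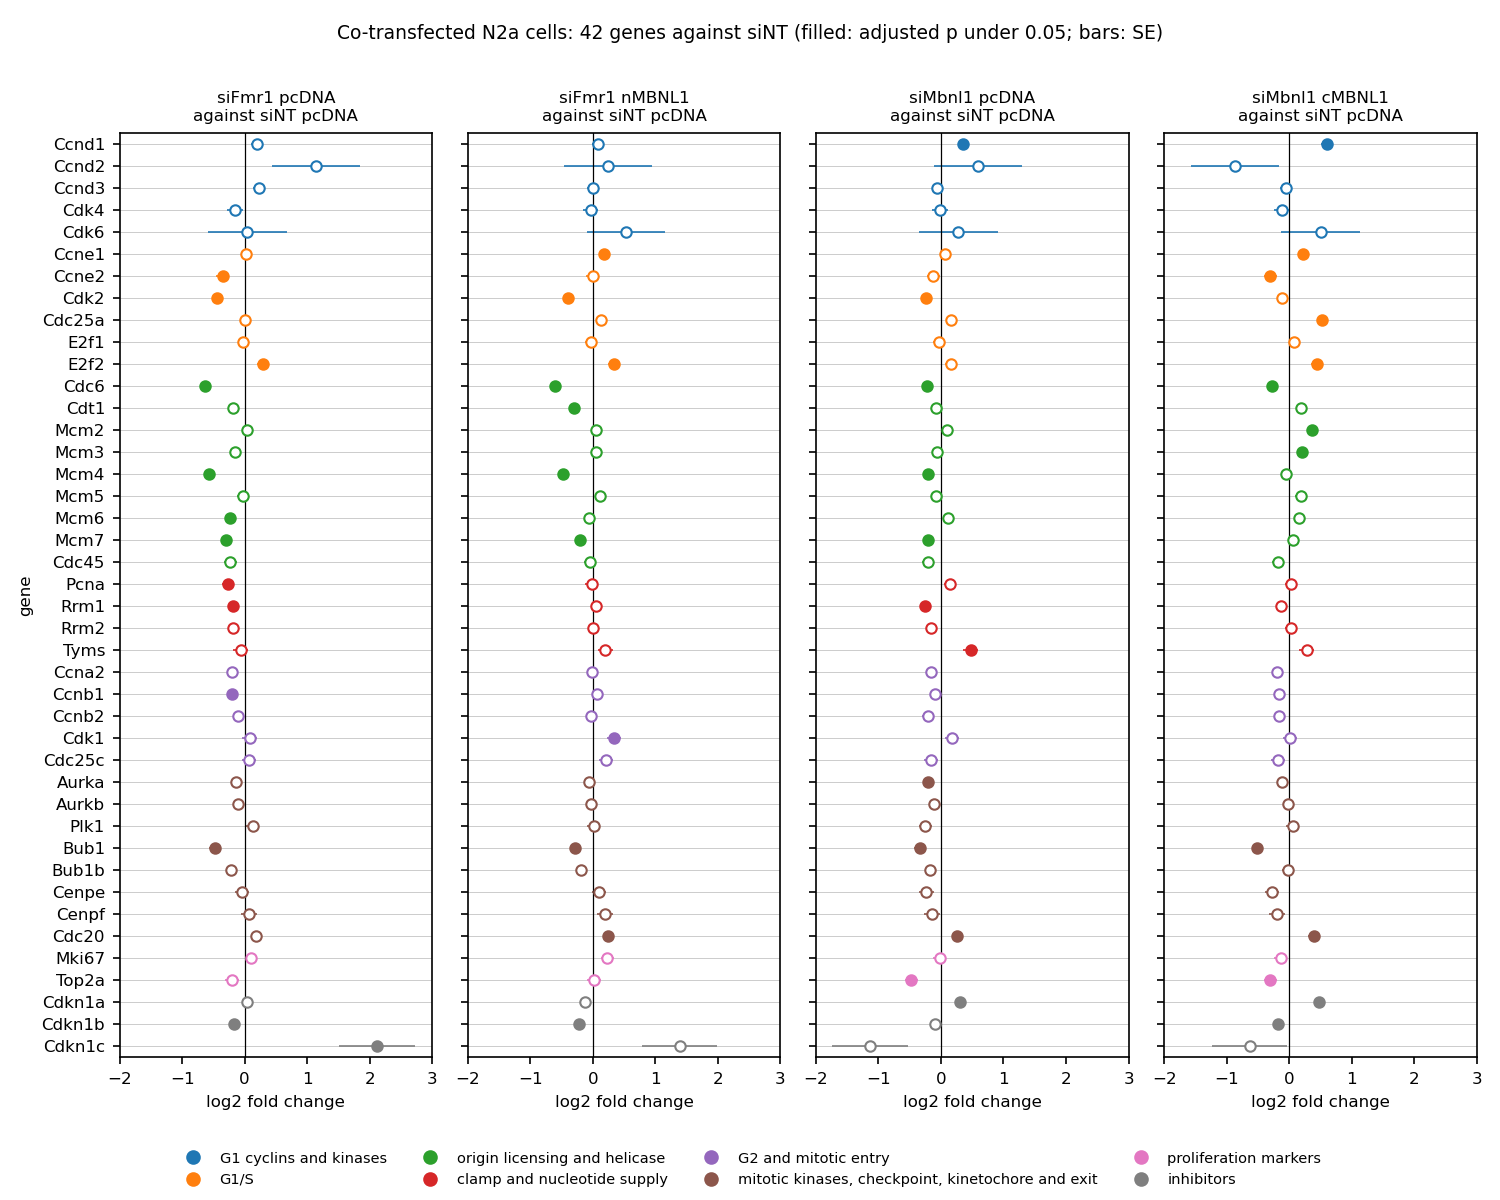
Log2 fold change (x axis, on the log2(normalized count + 1) scale) of each of the 42 genes (y axis, coloured by role) in the 4 treated groups against siNT pcDNA, with bars for the SE and filled points for adjusted p under 0.05. Cdc6 and Mcm4 lie at -0.63 and -0.57 in siFmr1 pcDNA, and Ccnd1 and Cdkn1a at 0.60 and 0.48 in siMbnl1 cMBNL1.

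In cells with siFmr1 and nuclear MBNL1, 4 of the 9 licensing and helicase genes fell against siNT pcDNA and none rose (median log2 fold change -0.0655). Of the 5 not called, Mcm2, Mcm3 and Mcm5 had higher means than in siNT pcDNA, and Mcm6 and Cdc45 lower means. Against siNT pcDNA, 4 of the 42 genes rose and 7 fell, where 21.2% and 19.9% of all genes did. The genes called make up 26.2% of the 42, against 41.1% of all genes. Cdc6 had 1632, 1701 and 1667 normalized counts (log2 -0.60 ± 0.07, adjusted p 1.37e-05) and Mcm4 3112, 3221 and 3161 (-0.48 ± 0.07, adjusted p 3.77e-05). Cdk2 had 1692, 1811 and 1686 (-0.40 ± 0.07, adjusted p 0.000191). All 3 genes lay below the siNT range given above. Cdt1, the other MCM loader, fell by 0.30 (4637, 4954 and 5355 against 4240, 4284 and 3629, adjusted p 0.00533), and Bub1 fell by 0.28. Mcm7 (-0.21) and Cdkn1b (-0.22) fell as well.

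E2f2 (0.34), Cdk1 (0.34), Cdc20 (0.24) and Ccne1 (0.18) rose. Cdk1 had 6767, 7614 and 7726, which overlap the siNT samples, and lost its call without siNT pcDNA 2, siFmr1 nMBNL1 2 or siFmr1 nMBNL1 3 (adjusted p up to 0.102). Ccne1 was called in 1 of 6 such fits and Cdc20 in 3, and Bub1 lost its call without siNT pcDNA 1 or siFmr1 nMBNL1 1. Both siFmr1 groups were set against the same 3 siNT samples, so the calls in both are not independent. With the compared groups alone, Cdkn1c was higher (log2 1.39, adjusted p 0.0365) and 3 genes fell, where 4154 of 16230 genes were called. Those that fell were Cdc6, Mcm4 and Cdk2, and each kept its call in every fit with 1 sample left out.

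Whether nuclear MBNL1 changed the genes in siFmr1 cells was examined by comparing the 2 siFmr1 groups directly, and the count of calls depended on the fit. None of the 42 passed the test in the fit of all 5 groups, where 0.634% of all genes were higher and 1.13% lower. At an unadjusted p under 0.05 there were 14 of 42, against 17.9% of all genes. The 4 of smallest p were Ccnb1 (10130, 10160 and 10260 without and 11450, 12790 and 12850 with nMBNL1, log2 0.28 ± 0.08), Rrm1 (0.24 ± 0.07), Ccne2 (0.35 ± 0.10) and Mcm6 (0.17 ± 0.06), with adjusted p of 0.076 to 0.16. Rrm1 had 7607, 7400 and 7487 without and 8335, 8713 and 9511 with nMBNL1, and Ccne2 had 2299, 2112 and 2413 against 2532, 3216 and 2968. Mcm6 had 5280, 5434 and 5304 against 5898, 6129 and 6006. In none of the 4 did the groups overlap, but genes picked by smallest p tend to separate, so this adds no support.

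The fit of these 2 groups alone, which leaves out the other 3 groups, called 10 of the 42 higher and none lower, where 7.87% of all genes were higher and 9.08% lower. The 10 were Ccnb1, Pcna, Cdk1, Ccne2, Rrm1, Mcm6, Top2a, Tyms, Mcm3 and Ccna2, with log2 fold changes from 0.17 to 0.35 and adjusted p from 0.00365 to 0.041. Cdc6, Mcm4 and Cdk2 were not among them. Weights per group in the fit of all 5 groups called 10 higher and 2 lower, where 2497 of 16242 genes were called. The cause of the difference between the fits was not tested. Over the 42 genes the median log2 fold change was 0.117, with 33 above 0, against 0.00049 over all genes.

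**Figure D2:**
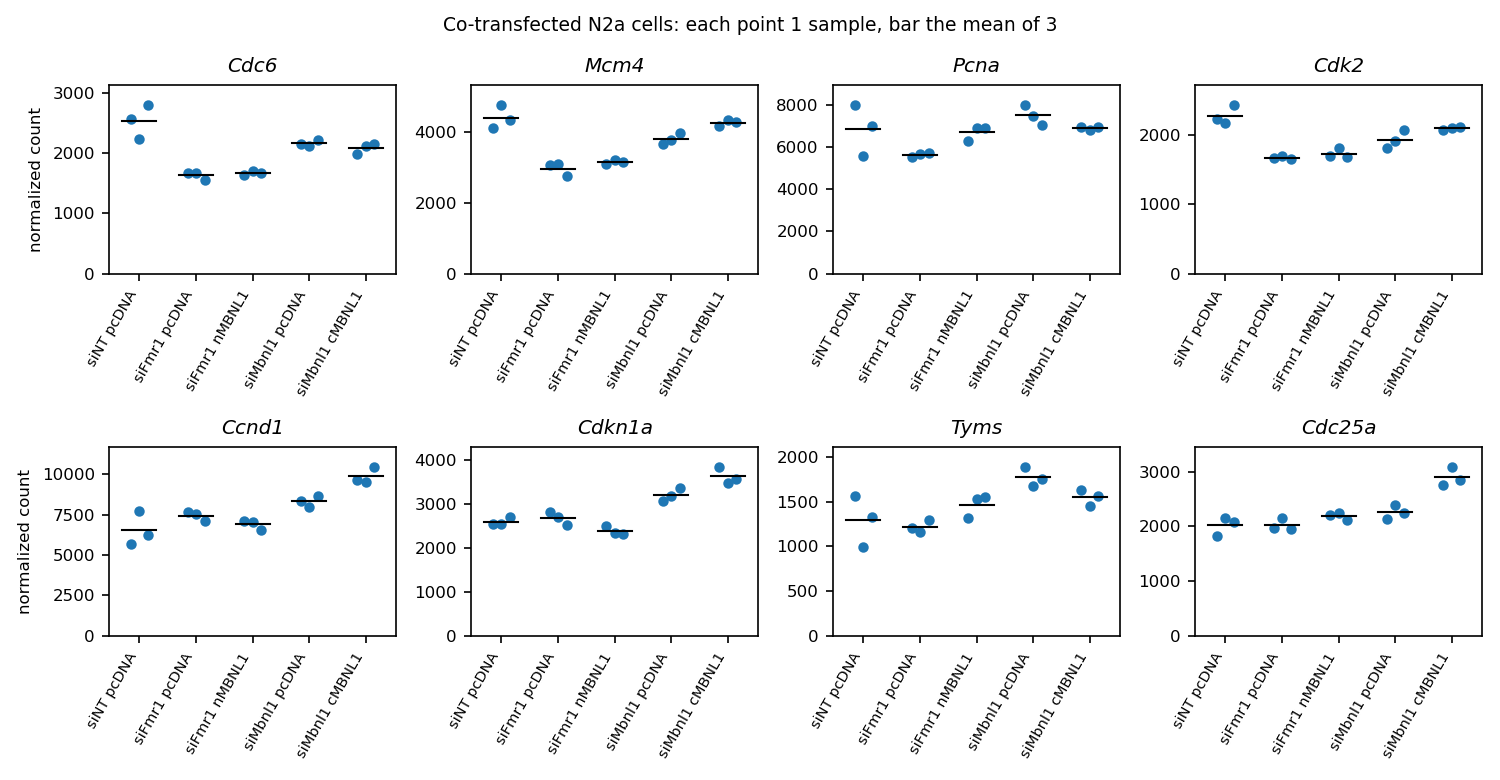
Normalized counts (y axis) of 8 genes in the 15 co-transfected samples, by group (x axis); each point is 1 sample and the bar the mean of 3. Cdc6 and Mcm4 are low in both siFmr1 groups, and Ccnd1, Cdkn1a and Cdc25a are highest in siMbnl1 cMBNL1.

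The knockdown of Mbnl1 was set against the same 3 siNT samples as the knockdown of Fmr1. In siMbnl1 pcDNA against siNT pcDNA, 4 of the 42 genes rose and 8 fell, where 17% of all genes were higher and 15.8% lower. Ccnd1 had 8320, 8005 and 8668 normalized counts, above the siNT values of 5686, 7739 and 6238 (log2 0.36 ± 0.09, adjusted p 0.00619). Cdkn1a, the p21 inhibitor, had 3051, 3179 and 3354 against 2531, 2537 and 2704 (0.30 ± 0.07, adjusted p 0.00243), and the groups did not overlap. Tyms, thymidylate synthase, had 1888, 1678 and 1751 against 1563, 996 and 1328 (0.47 ± 0.12, adjusted p 0.00718). Cdc20, the activator of the anaphase-promoting complex, rose by 0.26 (1491, 1317 and 1418 against 1138, 1198 and 1190).

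Top2a, the topoisomerase that untangles chromosomes, had 12290, 12370 and 13450 against 16040, 22140 and 15380 (-0.47 ± 0.11, adjusted p 0.00374). Bub1 (2576, 2749 and 2566) fell by 0.34, Rrm1 (7219, 6956 and 7308) by 0.25 and Cdk2 (1807, 1911 and 2067) by 0.24. Cdc6, Mcm4, Aurka and Mcm7 fell by 0.20 to 0.22. With 1 sample left out in turn, Ccnd1, Cdkn1a, Tyms, Top2a, Bub1 and Rrm1 were called in all 6 fits. Cdc6 was called in 1 of 6, Mcm4 in 3, Aurka and Cdc20 in 4, and Cdk2 and Mcm7 in 5, each losing its call without siMbnl1 pcDNA 1 or 2, respectively (adjusted p 0.0636 and 0.0701). In the fit of the compared groups alone 1 of the 42 was called, Cdkn1a (adjusted p 0.047), where 2396 of 16224 genes were called.

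With cytosolic MBNL1 in siMbnl1 cells, 8 of the 42 genes rose and 5 fell against siNT pcDNA, where 17.7% and 16% of all genes did. Ccnd1 had 9641, 9545 and 10450 (log2 0.60 ± 0.09, adjusted p 0.000101) and Cdkn1a 3831, 3467 and 3560 (0.48 ± 0.07, adjusted p 4.81e-05), both above every siNT sample. Cdc25a, the phosphatase that activates Cdk2, had 2754, 3083 and 2848 against 1820, 2155 and 2072 (0.52 ± 0.08, adjusted p 7.24e-05). E2f2 had 1942, 1988 and 1914 (0.44 ± 0.09) and Cdc20 1359, 1733 and 1558 (0.39 ± 0.08). Mcm2 had 6752, 7635 and 7189 against 5179, 5922 and 5575 (0.37 ± 0.07, adjusted p 0.00105). Ccne1 (0.22) and Mcm3 (0.21) also rose.

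Bub1 had 2317, 2372 and 2311 and fell by 0.51 (adjusted p 0.000374). Ccne2 (2376, 2338 and 2335) fell by 0.30, Top2a by 0.30, Cdc6 by 0.27 and Cdkn1b by 0.17. Ccnd1, Cdkn1a, Cdc25a, E2f2, Cdc20, Mcm2, Bub1 and Cdc6 were called in all 6 fits with a sample left out. Mcm3, Ccne2 and Top2a were called in 2 of 6 and Cdkn1b in 3, and Ccne1 lost its call without siMbnl1 cMBNL1 2 (adjusted p 0.0534). Ccnd1, Cdkn1a, Cdc25a, E2f2, Cdc20, Mcm2 and Bub1 were also the 7 called by the fit of the compared groups alone, 6 higher and 1 lower. That fit called 3032 of 16220 genes.

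Against siMbnl1 pcDNA, cytosolic MBNL1 was accompanied by higher Cdc25a (2132, 2398 and 2234 without and 2754, 3083 and 2848 with it, log2 0.36 ± 0.08, adjusted p 0.0256) and Mcm7 (4248, 4006 and 4280 against 5145, 4875 and 5029, log2 0.26 ± 0.06, adjusted p 0.0323). Neither gene's groups overlapped. These 2 of 42 were higher and none lower, where 1.43% of all genes were higher and 0.807% lower, and both calls were lost when any 1 of the 6 samples was left out (adjusted p up to 0.139). In the fit of these 2 groups alone, 13 of the 42 were higher and 2 lower, where 9.19% and 8.01% of all genes were. The higher ones held 5 of the 6 MCM subunits (Mcm2, Mcm3, Mcm4, Mcm5 and Mcm7), with log2 fold changes from 0.16 to 0.28, together with Cdt1 (0.28), Cdc25a, E2f2, Ccnd1, Plk1, Cdkn1a, Rrm2 and Top2a. Ccne2 and Bub1 fell by 0.18 and 0.17.

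The 2 knockdowns were then set against each other, a comparison that does not use the siNT samples as a reference. In siFmr1 pcDNA against siMbnl1 pcDNA, 3 of the 42 genes were higher and 7 lower, where 18.2% of all genes were higher and 17% lower. Pcna had 5510, 5665 and 5696 in siFmr1 and 7988, 7446 and 7054 in siMbnl1 cells (log2 -0.41 ± 0.10, adjusted p 0.00336). Tyms had 1203, 1160 and 1296 against 1888, 1678 and 1751 (-0.54 ± 0.12, adjusted p 0.00262). Cdc6 was lower by 0.41 on the log2 scale, with 1676, 1674 and 1552 against 2162, 2127 and 2214 (fold 0.753, adjusted p 0.000486). Mcm4 (3068, 3096 and 2759 against 3681, 3773 and 3991, fold 0.779) and Mcm6 (5280, 5434 and 5304 against 6522, 6853 and 7000, fold 0.786) were lower as well. None of these 5 genes, which were picked for their change, had overlapping groups.

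Cdkn1a (fold 0.836) and Cdk2 (fold 0.868) were the other lower genes. Plk1, the mitotic kinase, was higher in siFmr1 cells (2206, 2249 and 1955 against 1667, 1553 and 1693, log2 0.38 ± 0.10), as was Ccnd3 (4205, 4274 and 3706 against 3350, 3269 and 3401, log2 0.28 ± 0.09). Cdkn1c had 27.4, 31.3 and 35.9 against 0, 8.50 and 3.11 (adjusted p 0.000544). Leaving out 1 sample in turn, all but Cdk2 and Ccnd3 kept their calls in 6 of 6 fits. Ccnd3 was called in 1 of 6 and Cdk2 in 2. The fit of these 2 groups alone called 7 higher and 12 lower, where 23.6% of all genes were higher and 23.6% lower.

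The anchors in the other groups were as follows. Mki67 had 12850, 13540 and 13570 in siMbnl1 pcDNA, 14820, 15580 and 17210 in siFmr1 nMBNL1 and 10720, 13170 and 13090 in siMbnl1 cMBNL1. Pcna had 6285, 6883 and 6921 in siFmr1 nMBNL1 and 6943, 6826 and 6930 in siMbnl1 cMBNL1. Cdk1 had 7135, 6184 and 6382 in siMbnl1 pcDNA and 5898, 5787 and 5896 in siMbnl1 cMBNL1. Each of these overlapped the siNT samples. Ccnd1 had 7087, 7037 and 6561 and Cdkn1a 2488, 2325 and 2306 in siFmr1 nMBNL1, and neither was called against siNT pcDNA (adjusted p 0.481 and 0.139).

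Ccnd2 and Cdk6 were too low to assess: Ccnd2 lay between 0 and 12.1 normalized counts and Cdk6 between 0 and 2.36 in the 15 samples.

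The wider pathway was described with fixed lists of further genes. In siFmr1 pcDNA against siNT pcDNA, where 19.5% of all genes were higher and 17.5% lower, 2 of 32 further replication genes rose and 8 fell (median -0.114). Mcm10 (-0.57), Dbf4 (-0.42) and Gins3 (-0.42) fell, while Dut (0.69) and Tk1 (0.47) of nucleotide metabolism rose. Of 30 further mitosis genes 12 fell and none rose, led by Anln (-0.55), Sgol1 (-0.46) and Kif23 (-0.39). Of 28 further regulators 11 fell, among them Skp2 (-1.10), Chek1 (-0.75) and Chek2 (-0.66), and 4 rose, with Mycn at 1.27. The other siFmr1 group differed. In siFmr1 nMBNL1 against siNT pcDNA 8 of the 32 replication genes rose and 3 fell (median -0.00138), where 21.2% of all genes were higher and 19.9% lower. Of the mitosis genes 4 rose and 4 fell there, and of the regulators 5 rose and 8 fell. In siMbnl1 pcDNA, where 17% of all genes were higher and 15.8% lower, 6 replication genes rose and 5 fell, and 2 mitosis genes rose and 11 fell. Of the 28 further regulators 6 rose there, with Myc at 1.21, and 6 fell, with Cdkn2b at -2.12 (± 0.77 SE) and Rbl2 at -0.65. Of 13 p53 targets tested there 6 rose, with Plk2 at 1.99, and 1 fell. In siFmr1 pcDNA 4 p53 targets rose and 5 fell, with Plk2 at 1.60 and Gadd45a at -0.82. Plk2 also rose against siNT pcDNA in siFmr1 nMBNL1 (2.01) and siMbnl1 cMBNL1 (1.91).

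Other marker lists also moved between these groups. The summed normalized counts of the 11 neuroblast markers were 54900 to 62470 in siNT pcDNA and 79290 to 82760 in siFmr1 pcDNA, and 58080 to 66120 in siMbnl1 pcDNA. Dbh rose by 2.08 and Hand2 by 0.93 in siFmr1 pcDNA against siNT pcDNA. Summed interferon response genes (8 of 8 detected in every sample) were at 1901 to 2120 in siNT pcDNA and 1507 to 1528 in siFmr1 pcDNA. The 5 macrophage markers summed to 70.5 to 88.6 in siNT pcDNA and 3.94 to 15.3 in siFmr1 pcDNA. The part of these shifts in the results for the 42 genes was not tested.

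In the first N2a experiment, with siRNA alone, none of the 39 genes was called in siFmr1 against siNT (edgeR quasi-likelihood test). Of all 12187 genes tested 0% were called, and DESeq2 also called 0%. At an unadjusted p under 0.05 edgeR gave 0 of the 39 genes and 47 of all. The genes nevertheless differed widely between libraries that carry the same label. In siFmr1 2 all 39 were above siFmr1 1, with a median difference in log2(CPM + 1) of 2.03, or 4.07-fold, against a median of 0.0201 over 9834 genes. In siNT 2, 32 of 39 were above siNT 1, with a median of 1.32, or 2.49-fold, against 0.00919 over all genes. In siFmr1 3, 34 of 39 were above siFmr1 1, with a median of 1.45.

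The values of single genes show the size of this split. Rrm2, the ribonucleotide reductase subunit, was at 20.6 and 89.7 CPM in siNT 1 and 2 and at 13.1, 122 and 78.7 CPM in siFmr1 1 to 3. Pcna was at 104 and 239 CPM in siNT 1 and 2 and at 75.1, 248.9 and 165 CPM in siFmr1 1 to 3. Cdk1 was at 122 and 358 CPM and at 64.3, 271 and 223 CPM in the same order. In each of the 3 genes siFmr1 1 was lowest and siNT 1 next, so the order of the libraries did not follow the siRNA.

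The 4 genes of smallest p follow. Ccnd1 was at 370 and 332 CPM in siNT and at 251, 252 and 244 CPM in siFmr1, so its groups did not overlap on this scale (log2 -0.50 ± 0.26, unadjusted p 0.0986, adjusted p 1). In the deposited TPM they overlapped, at 188 and 98.0 in siNT and 131, 119 and 93.5 in siFmr1. Cdkn1a was at 46.9 and 147 CPM in siNT and at 41.3, 41.4 and 103 CPM in siFmr1. Mki67 was at 201 and 71.0 CPM in siNT and at 111, 801 and 105 CPM in siFmr1, and its log2 fold change of 1.32 ± 1.03 had siFmr1 2 far above the other libraries. Cenpe was at 39.6 and 11.3 CPM in siNT and at 21.5, 120 and 14.3 CPM in siFmr1. Without siFmr1 2, Mki67 and Cenpe turned to -0.33 and -0.50.

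**Figure D3:**
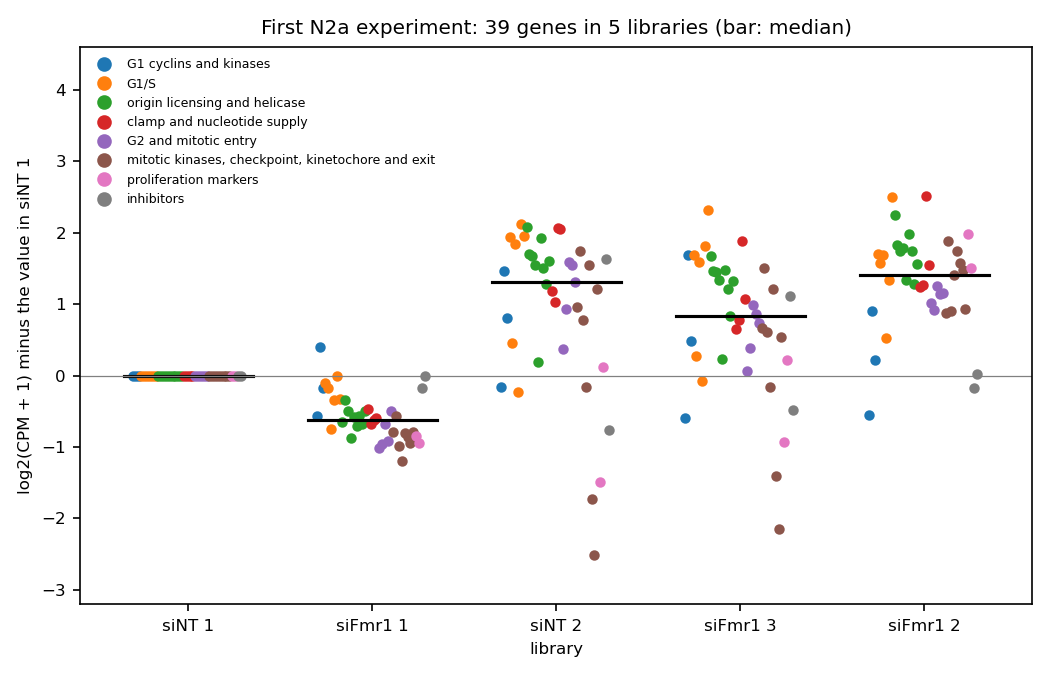
Difference in log2(CPM + 1) from library siNT 1 (y axis) of the 39 listed genes, coloured by role, in the 5 libraries of the first N2a experiment (x axis); the bar is the median. The medians are -0.616 in siFmr1 1, 1.32 in siNT 2 and 1.41 in siFmr1 2.

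Transcript length moved with part of this split. Over all genes, siNT 2 minus siNT 1 had a median of 0.786 for transcripts under 2 kb, 0.0944 from 2 to 4 kb, -0.521 from 4 to 7 kb and -1.03 at 7 kb or more. The 3 longest of the 39 genes, Cenpf (11.1 kb), Mki67 (10.1 kb) and Cenpe (7.91 kb), were lower in siNT 2 than in siNT 1, by 2.51, 1.49 and 1.73 on the log2 scale. The 24 genes of 2 to 4 kb were higher, with a median of 1.5, where all genes of that length had 0.0944. Between siFmr1 2 and siFmr1 1 all genes showed little relation to length (Spearman correlation -0.0766 across 9834 genes), and Cenpf, Mki67 and Cenpe were higher by 2.43, 2.84 and 2.43. The rise of the 39 genes in siFmr1 2 was thus present in every length class, with medians of 1.72, 1.95, 2.39 and 2.43. The part of transcript length in the siNT 2 and siFmr1 3 values was not tested.

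The split was not shared by all roles or lists. Between siFmr1 2 and siFmr1 1 the medians were 2.24 for the 9 licensing and helicase genes, 2.43 for the 8 mitotic kinase, checkpoint and kinetochore genes, 0.391 for the 3 listed G1 cyclins and kinases and 0.0141 for the 2 listed inhibitors. Cdkn1a and Ccnd1 differed by 0.00161 and 0.00735. The wider lists moved the same way: all 32 further replication genes and all 30 further mitosis genes were higher in siFmr1 2, with medians of 1.95 and 1.93. All 7 tested interferon response genes were lower, with a median of -1.17, and 10 of 12 p53 targets were lower, with a median of -0.474. No label names what separates these libraries.

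Libraries fell into like pairs over all genes. siNT 1 and siFmr1 1 had a Spearman correlation of 0.991 across 12187 genes, siNT 2 and siFmr1 3 one of 0.985, and siNT 1 and siNT 2 one of 0.883. Within the first pair 38 of the 39 genes were lower in the siFmr1 library, with a median of -0.616 (fold 0.652), Ccnd3 being the exception at 0.40. Over 9834 genes the median there was -0.0254, with 45.0% above 0. Within the second pair 29 of 39 were lower, with a median of -0.258. Over all genes it was -0.00342, with 49.6% above 0. Each pair is 1 library against 1. Library siFmr1 2 was above siNT 1 in 37 of 39 and above siNT 2 in 23 of 39 genes, where 50.8% and 50.6% of all genes were. These pairs were read from the data. With the pairs as a block and siFmr1 2 left out, a fit chosen after seeing the data, edgeR called 6 of the 39 lower: Tyms (-0.84), Cdk1 (-0.80), Ccnb1 (-0.75), Cdc20 (-0.75), Ccnb2 (-0.66) and Ccna2 (-0.66), with adjusted p from 0.00307 to 0.0386. In that fit 164 of 12162 genes were called.

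**Figure D4:**
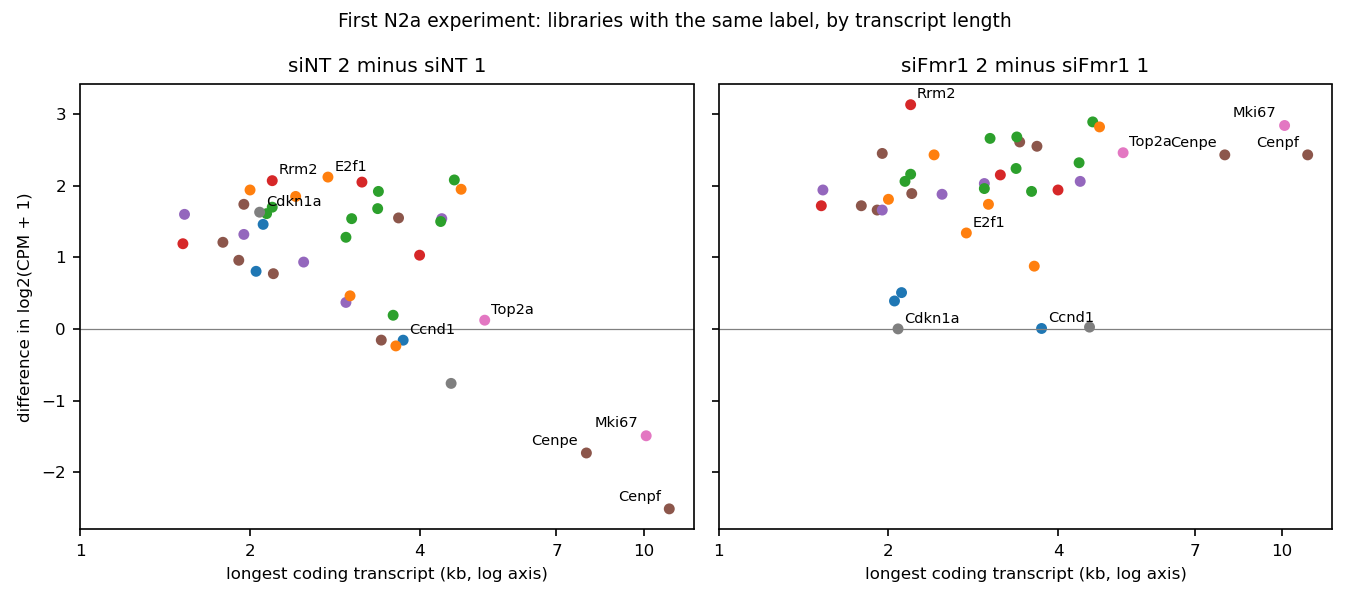
Difference in log2(CPM + 1) (y axis) of 39 genes between 2 libraries with the same siRNA against the length of the longest coding transcript (x axis, kb, log axis), coloured by role as in the plot of the 5 libraries. In siNT 2 minus siNT 1 the longest genes, Cenpe, Mki67 and Cenpf, lie below 0, and in siFmr1 2 minus siFmr1 1 they lie at 2.43 to 2.84.

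Per-length levels placed the genes in a wide range. In siNT 1 the deposited TPM ran from 4.78 for Cdc6 and 6.84 for E2f2 up to 560 for Cdk4, with 208 for Ccnb1, 188 for Ccnd1 and 184 for Pcna. In siFmr1 2 Cdk4 was at 601, Pcna at 403, Ccnb1 at 365 and Top2a at 303 TPM. Cdk4 was the most abundant of the 39 genes in each of the 5 libraries.

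In testis, none of the 42 genes was called in Fmr1 KO against WT by edgeR, where 4.27% of 15465 genes were called, or, among genes with an adjusted p, by DESeq2, where 5.26% of 9152 such genes were called. At an unadjusted p under 0.05 there were 3 of 42, against 18.3% of all genes. The authors' deposited table gives an adjusted p for 33 of the 42 genes; none was under 0.05, and the lowest was 0.0565. The median log2 fold change was -0.0159, with 18 genes above 0 and 24 below. The 4 genes of smallest p are given in CPM. Bub1 was at 107.6, 119.5 and 114.2 in KO and 103.7, 94.5 and 97.7 in WT (log2 0.21 ± 0.07, adjusted p 0.0622), and Ccne2 at 37.4, 35.9 and 43.4 against 37.1, 28.3 and 33.9 (0.24 ± 0.09, adjusted p 0.138). Rrm1 was at 124.9, 141.4 and 139.5 against 120.2, 127.1 and 117.1 (0.16 ± 0.07, adjusted p 0.181), and Mcm2 at 10.2, 15.5 and 13.1 against 11.5, 10.3 and 10.6 (0.27 ± 0.13, adjusted p 0.276).

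In CPM the genotypes overlapped for Ccne2, Rrm1 and Mcm2 but not for Bub1, whose groups overlapped in the deposited TPM (42.5 to 48.6 in KO and 38.2 to 42.9 in WT). Without KO 1, edgeR called 5 of the 42: Bub1 (0.245), Cenpf (0.20), Mcm2 (0.41) and Rrm1 (0.21) higher and Plk1 (-0.24) lower, with adjusted p from 0.0149 to 0.0472. The number of all genes called also rose, from 661 to 1256. The anchors did not separate the genotypes. Mki67 was at 59.0, 62.3 and 64.1 CPM in KO and 71.4, 63.6 and 63.8 CPM in WT, Pcna at 105.1, 100 and 110 against 110.1, 99.7 and 106.8, and Cdk1 at 29.1, 30.9 and 33.5 against 32.6, 32.7 and 29.2. Ccnd1 was at 7.45, 7.64 and 8.11 CPM against 7.71, 7.45 and 6.34, and Cdkn1a at 9.96, 7.77 and 6.84 against 10.2, 9.32 and 7.78.

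**Figure D5:**
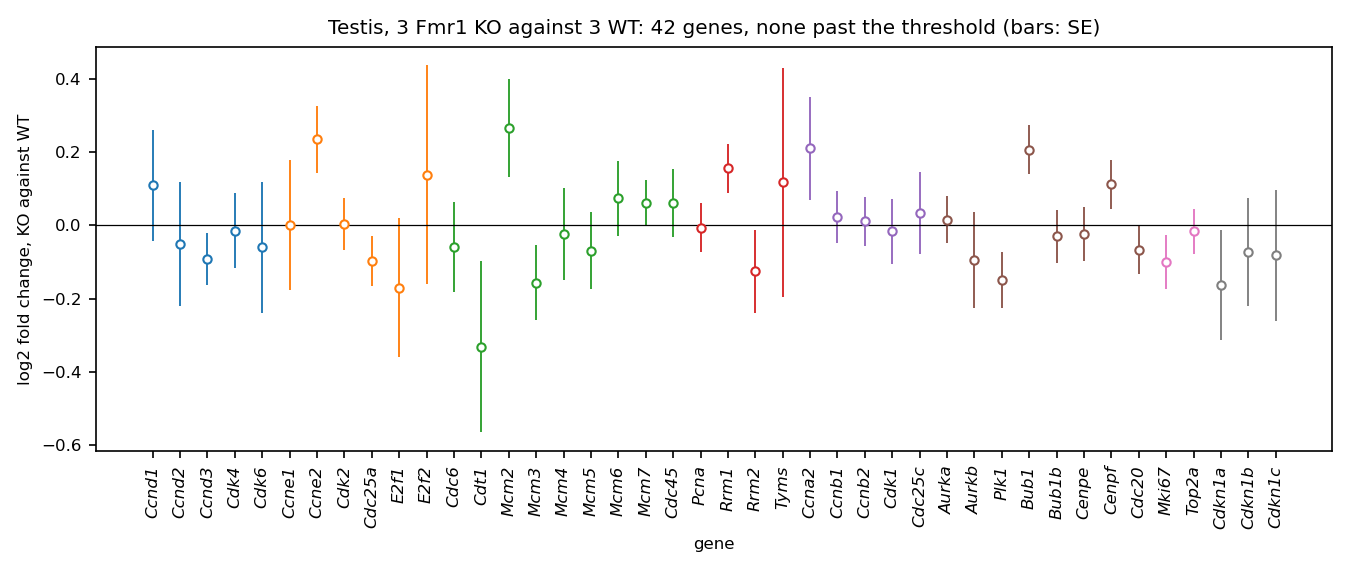
Log2 fold change of the 42 genes in testis (y axis), 3 Fmr1 KO against 3 WT samples, by gene (x axis), with bars for the SE from edgeR; colours mark the roles as in the co-transfection plot. No gene passed the threshold, and the values run from -0.33 for Cdt1 to 0.27 for Mcm2.

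Some genes outside the 42 were called in testis, where 4.27% of all genes were. Of 30 further mitosis genes 4 rose, Ube2c (0.34), Birc5 (0.33), Ttk (0.32) and Nusap1 (0.31), and none fell. Of 32 further replication genes 1 rose, Orc2 (0.34). Among the further regulators only Cks2 (0.24) and Cdkn3 (0.23) were called, both higher. Of 9 spermatocyte markers 3 rose, Sycp1 (0.35), Hormad1 (0.30) and Sycp2 (0.27), and 6 were not called (median of the 9 0.133). Of 5 elongating spermatid markers 2 fell, Tnp2 (-0.29) and Tnp1 (-0.28). Of 5 Leydig cell markers 4 fell, Hsd3b1 (-0.51), Star (-0.30), Cyp17a1 (-0.30) and Insl3 (-0.28). The summed TPM of the 9 spermatocyte markers was 2092 to 2299 in KO and 2079 to 2149 in WT, and that of the 5 Leydig markers 3025 to 3354 in KO and 3400 to 4408 in WT. The part of cell composition in the values of the 42 genes was not tested. Per length, the most abundant of the 42 in WT 1 were Ccnb2 (184 TPM), Pcna (181 TPM), Aurka (152 TPM) and Mcm7 (131 TPM), and Tyms (0.73 TPM) and E2f2 (0.47 TPM) were the least.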

How the data were processed

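The members and the gene lists were chosen with earlier results of these data known. Per the submitters' processing notes the tools included STAR 2.6.1, RSEM 1.3.1, Trimmomatic 0.39 and DESeq2 1.16.1, and the builds GRCm38 and mm10, with no role stated. The authors deposited whole-number read counts and TPM per gene for the first N2a experiment and for testis, with log2 fold changes and adjusted p-values of their own, per the file headers. The authors deposited the co-transfection data as a normalized count signal; how it was normalized is not stated, whole reads could not be recovered from its values, and 4 rows with repeated names were left out.

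Normalized counts were tested with limma 3.58.1 (trend) after adding 1 and taking log2, keeping a mean of 1 or more, with all 5 groups in 1 fit. A fold change on this scale understates the change of low genes. Counts were tested with the edgeR 4.0.16 quasi-likelihood test after TMM scaling and filterByExpr. Its SE is the log2 fold change divided by the root of the F statistic. DESeq2 was an alternative. Calls required an adjusted p under 0.05 (Benjamini-Hochberg over all genes tested). CPM were computed from the counts with TMM-scaled library sizes. Scripts were tested on simulated data.

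Samples were grouped by the titles. Values in every sample are given for Mki67, Pcna, Cdk1, Ccnd1 and Cdkn1a, for up to 8 called members of largest change per comparison with a mean of at least 10 in a group, and otherwise for the 4 members of smallest p. Members picked for their change or p tend to have groups without overlap, so such statements describe them and are no added support. The share of all genes without overlap was not counted. Of other lists at most 6 called genes each are named. Lengths are those of the longest coding transcript in GENCODE M21 and promoters are from RefSeq. The E2F motif was searched in 6 spellings; a narrower set of 4, tried after the counts had been seen, is given beside it. Brain, liver, muscle and splicing tables were not used here. Alternatives covered scaling, pseudocount, filters, samples in the fit, group weights, a replicate block and leaving out each sample.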

Additional observations from a re-analysis of the deposited data

How the results depend on the processing

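In the co-transfection experiment samples with the same replicate number did not deviate together (correlations of -0.0624 to 0.0765 over 30 pairs). The same held in testis (-0.0588 to -0.00256 over 3 pairs), so no pairing by number is warranted in these 2. In the first N2a experiment siNT 1 and siFmr1 1 deviated together (0.743), but siNT 2 and siFmr1 2 did not (-0.247). There siNT 2 and siFmr1 3, of unlike number, had 0.895. With the replicate block the numbers of the 42 genes called were 11, 12, 11 and 13 for siFmr1 pcDNA, siMbnl1 pcDNA, siFmr1 nMBNL1 and siMbnl1 cMBNL1 against siNT pcDNA, 0 and 2 for the plasmids against their own knockdown, 10 between the knockdowns, and 0 in the first N2a experiment and testis. In the same order of the 7 co-transfection comparisons, the fit of the compared groups alone called 6, 1, 4, 7, 10, 15 and 19 genes. Weights per group called 8, 5, 7, 8, 12, 10 and 15 in the same 7. Of all 16242 genes they called 4075, 3325, 4689, 3571, 2497, 2342 and 7747. A minimum absolute log2 fold change of 1 left 1, 0, 0 and 0 against siNT pcDNA, 0 for cMBNL1 against siMbnl1 pcDNA and 1 between the knockdowns. Leaving out 1 sample in turn gave 7 to 19, 8 to 16, 8 to 16, 8 to 17, 0 to 0, 0 to 0 and 8 to 9 genes, and 0 to 0 in the first N2a experiment and 0 to 5 in testis, where 3 had an unadjusted p under 0.05. The cause of these differences was not tested. In the first N2a experiment, library pairs as a block without siFmr1 2, chosen after seeing the data, called 6 genes. Directions turned for Mki67 (log2 -0.33 without siFmr1 2, up to 2.25 without siNT 1, -0.15 with the pairs), Cenpe (-0.50, up to 2.20, and -0.31) and Cdkn1a (0.40 without siNT 2, down to -1.25 without siNT 1). Over all alternatives, 97 counts stayed within 1.5 times the main count and 30 did not, and of single genes 649 values kept direction and call, 59 lost the call, 11 gained one and 5 turned direction. Original depth is unknown for the co-transfection table.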
